A study of Mus musculus with 6 samples.

Results

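The genes for collagen chains, laminin chains and integrin chains were examined in 22Rv1 cells, a human prostate cancer cell line. A gene was a member if the deposited count table lists it as protein coding and its symbol is that of a collagen chain (COL, number, A, number), a laminin alpha, beta or gamma chain (LAMA, LAMB, LAMC) or an integrin alpha or beta chain (ITGA, ITGB). This rule found 81 of 58735 genes, of which 44 encode collagen chains, 25 integrin chains and 12 laminin chains. RNA-Seq covered parental 22Rv1 cells cultured with vehicle (3 libraries) and the subline 22Rv1 BL-B01D1_R (3 libraries), derived from them by culture in rising concentrations of BL-B01D1, a bispecific antibody-drug conjugate directed at EGFR and HER3. Both groups share the cell line and carry no engineered allele. The resistant group is 1 selected subline, so the spread between its libraries does not cover a repeated selection, and since no source states that the libraries of a group came from separate cultures, p-values may measure technical spread only.

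Collagens are trimers of alpha chains with a triple helix. Fibrillar collagens form the fibers of connective tissue, whereas collagen IV forms the sheet of the basement membrane on which epithelial cells rest. Laminins are heterotrimers of an alpha, a beta and a gamma chain and form the other network of that membrane. Integrins are receptors made of an alpha and a beta chain that bind these proteins outside the cell and connect to the actin cytoskeleton inside it. In the normal prostate, basal epithelial cells contact the basement membrane through laminin-binding integrins, and luminal cells lie above them.

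Counts on genes totaled 13821639 to 17251491 in the parental libraries and 14820809 to 16725283 in the resistant libraries. Levels are given as CPM, in which the counts of every library were brought to the same TMM-scaled total of 1e6, or as FPKM. FPKM are CPM divided by gene length in kilobases. That length is 1 deposited value per gene (19293 bases for COL4A2 and 9124 for COL4A3). The transcripts that these cells express may be shorter, so FPKM rankings, sums and shares across genes depend on the lengths used. A count of 3 corresponds to 0.174 to 0.216 CPM, depending on the library, and changes in genes near that level were not detectable at this depth. No library repeated another, since a chi-square of their counts was 1.79 to 2.48 times its degrees of freedom within a group and 20.6 to 23.8 times across groups, and all 6 were used as separate samples. Markers of luminal prostate epithelium were expressed in both lines. All 9 luminal markers passed the filter on low counts. In the resistant subline, 5 of them were higher (55.6%) and 3 lower (33.3%) at an FDR under 0.05. Of all genes tested, 17.1% were higher and 18.4% lower at that FDR. None of the luminal markers passed the fold threshold of 1 on the log2 scale. Their log2 fold changes lay between −0.48 (HOXB13) and 0.91 (KLK3), and their summed level was 3436 to 3538 CPM in parental and 3620.3 to 3708 CPM in resistant libraries. The basal keratin KRT5 had 0 counts in all 6 libraries, and none of the 4 basal, 5 endothelial or 6 leukocyte markers passed that filter. Their summed levels were at most 1.36 CPM for the basal markers, 0.272 CPM for the endothelial markers and 0.555 CPM for the leukocyte markers in any library. Of 7 fibroblast and smooth muscle markers, 4 were tested, of which LUM fell, MYH11 rose and DCN and ACTA2 did not pass the test. LUM (lumican, a collagen-binding proteoglycan) was at 96.0 ± 2.96 CPM in parental and 28.8 ± 2.40 CPM in resistant cells (SD, n = 3 each). MYH11 (smooth muscle myosin) had 47, 51 and 18 counts in parental and 244, 173 and 221 counts in resistant libraries. The sum over that list was 99.6 to 105 CPM in parental and 43.2 to 46.0 CPM in resistant libraries, whereas PDGFRB, DES and THY1 had at most 6 counts in any library.

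Laminin, integrin and collagen genes moved in both directions in the resistant subline, and members of 1 family, or even chains of 1 collagen, could move in opposite directions. The called members with the widest falls were LAMC3, COL13A1, LAMA3, ITGA6 and COL6A1. Those that rose most were COL6A3, COL5A1, COL4A6 and COL7A1. COL13A1 reached the cutoff of the filter on low counts in 0 resistant libraries, and COL4A6 in only 1 parental library. They thus passed wholly or mainly through the group where they were higher, which made a difference more likely. Both are included in the counts of called members below. A test could be made for 51 members, 26 collagens, 17 integrins and 8 laminins, with edgeR's quasi-likelihood test on all 17142 genes that passed the filter. Of these 51, 4 were called higher in the resistant subline (7.84%) and 8 were called lower (15.7%), where a called gene has an FDR under 0.05 together with a log2 fold change above 1 or under −1. Over all genes tested, the same rule called 2.53% higher and 2.84% lower. Without the fold threshold, 14 members were higher (27.5%) and 15 lower (29.4%) at an FDR under 0.05, compared with 17.1% and 18.4% of all genes tested. All resistant libraries lay above all parental ones for 15 members (29.4%) and under them for 17 (33.3%), compared with 22.1% and 22.8% of all genes tested. The groups did not overlap for any of the 12 called members, which the call, made on the same libraries, makes likely. The median log2 fold change of the 51 members was −0.02, and that of all genes tested was 0.0038 with an interquartile range of −0.16 to 0.18. The count of members called higher depended on 1 library, since only 1 (COL5A1) was called without parental library 1, and under a test of whether the fold change itself exceeds the threshold (glmTreat) 0 were called higher and 4 lower (LAMC3, LAMA3, ITGA6 and COL6A1).

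**Figure D1:**
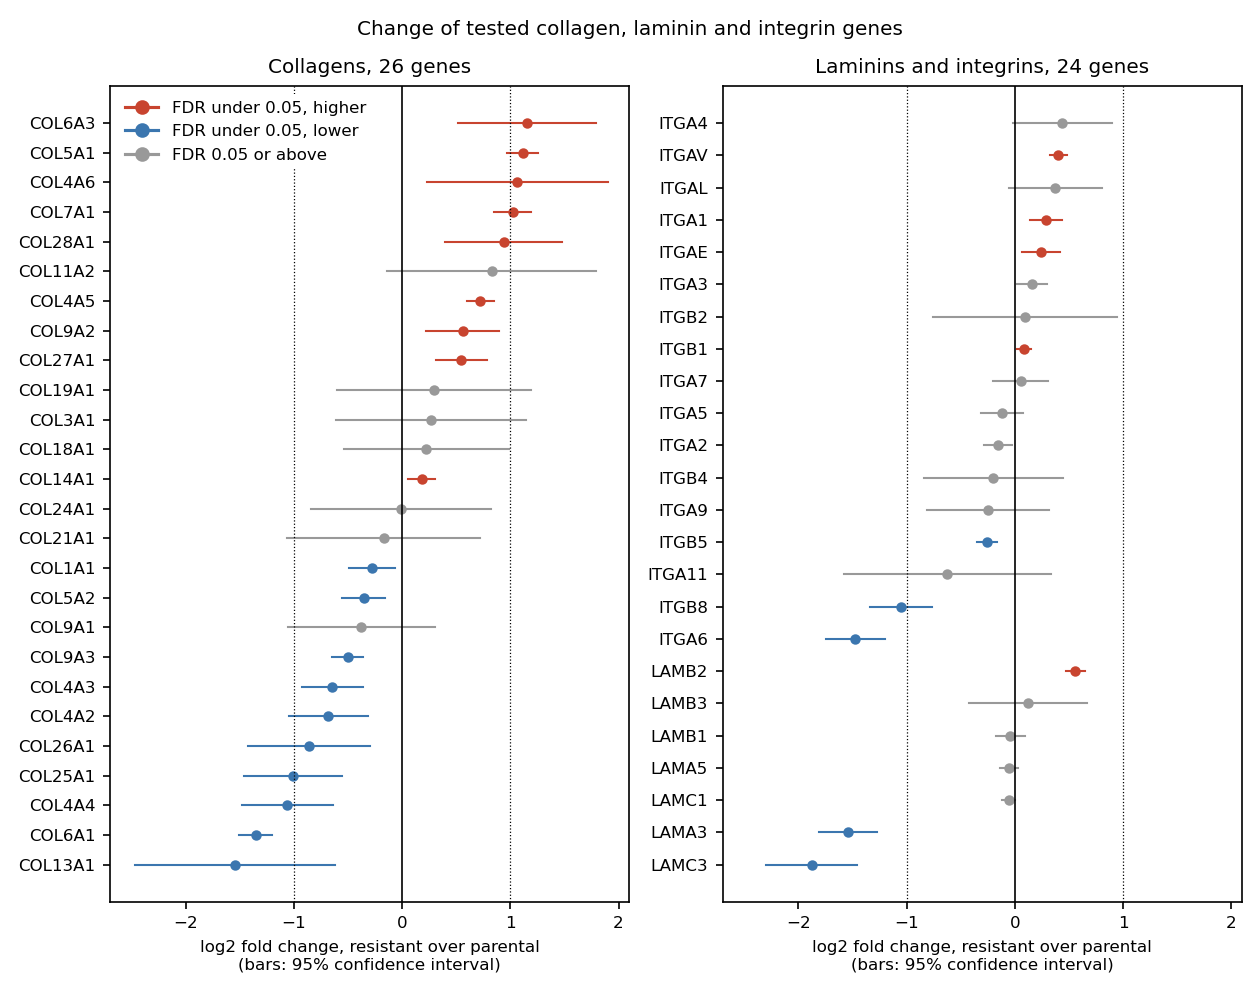
Log2 fold change (resistant over parental, x axis) of 50 of the 51 members tested, with collagens on the left and integrins and laminins on the right; points are edgeR estimates, bars are 95% confidence intervals, dotted lines mark −1 and 1, and color gives the side of an FDR of 0.05. Collagens spread from −1.54 (COL13A1) to 1.16 (COL6A3), and LAMC3 at −1.88 lies lowest.

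Among laminin chains, LAMA3 and LAMC3 fell, LAMB2 rose and no other chain passed the test. LAMC3 (ENSG00000050555, chr9:131009082-131094473 of hg38, forward strand) encodes a gamma chain of laminins outside the classical epithelial form. Its level was 5.45, 6.67 and 5.55 CPM in parental libraries 1 to 3 and 1.51, 1.77 and 1.54 CPM in resistant libraries 1 to 3. The groups lay far apart, and the log2 fold change was −1.88 (SE 0.208, FDR 7.77e-10), a level 3.67-fold higher in parental cells. LAMA3 (ENSG00000053747, chr18:23689443-23956222, forward strand) encodes the alpha chain of the laminin with which epithelial cells anchor to the basement membrane. LAMA3 was at 18.5, 12.7 and 15.9 CPM in parental libraries and at 4.83, 5.57 and 5.79 CPM in resistant libraries. Each parental library lay above each resistant one, with a log2 fold change of −1.54 (SE 0.134, FDR 1.24e-12). LAMB3, which assembles with LAMA3 in that laminin, was rare and overlapped between the groups. LAMB3 was at 1.86 ± 0.314 and 2.03 ± 0.377 CPM (SD, n = 3 each; log2 fold change 0.12, 95% confidence interval −0.42 to 0.67, FDR 0.772) in parental and resistant cells.

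LAMB2 (ENSG00000172037, chr3:49121114-49133118, reverse strand), a beta chain that replaces LAMB1 in several laminins, rose in the resistant subline. Its level was 87.9, 79.4 and 83.1 CPM in parental and 123, 123 and 124 CPM in resistant libraries, with a log2 fold change of 0.56 (SE 0.042, FDR 1.53e-14). The resistant libraries lay close together, and all were above the parental ones. LAMB1, the more widely expressed beta chain, was at 36.2 ± 2.31 CPM in parental and 35.3 ± 1.61 CPM in resistant cells (SD, n = 3 each; log2 fold change −0.04, FDR 0.688). LAMC1, the gamma chain common to most laminins, was at 305, 304 and 310.5 CPM in parental and 295, 292 and 298 CPM in resistant libraries. Its groups did not overlap, but the log2 fold change was only −0.05 (95% confidence interval −0.11 to 0.00) and the FDR was 0.146. LAMA5, the alpha chain of the main laminins of adult epithelia, was at 110.2 ± 2.47 and 106 ± 3.79 CPM (SD, n = 3 each; log2 fold change −0.05, FDR 0.339). LAMA5 and LAMB1 overlap genes on the opposite strand (ADRM1 and DLD) and the use of strand in counting is not given in the sources used here, so their counts are uncertain.

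Per gene length, LAMC1 was the most abundant laminin chain of both lines, at 36.5 FPKM in parental and 35.1 FPKM in resistant cells, followed by LAMB2 at 12.2 and 17.9 FPKM, LAMA5 at 7.71 and 7.43 FPKM and LAMB1 at 4.45 and 4.33 FPKM. LAMA3 (1.07 and 0.368 FPKM) and LAMC3 (0.776 and 0.211 FPKM) were minor chains in both lines. LAMA3 made up 12.2 ± 2.20% (SD, n = 3) of the summed FPKM of the laminin alpha genes in parental cells and 4.70 ± 0.271% in resistant cells. LAMA5 made up nearly all of the remainder, 87.6 ± 2.20% and 95.1 ± 0.226%. The share of LAMB2 among the beta genes was 68.7% to 73.2% in parental and 78.3% to 79.6% in resistant libraries. The summed FPKM of the beta genes was 17.0 ± 0.420 in parental and 22.7 ± 0.235 in resistant cells (SD, n = 3 each), and every resistant library lay above every parental one. LAMC3 made up 2.07% of gamma chain FPKM in parental cells and 0.596% in resistant cells. LAMA1, LAMA2, LAMA4 and LAMB4 had at most 4 counts in any library and were not tested, and LAMA1 had 0 in all.

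**Figure D2:**
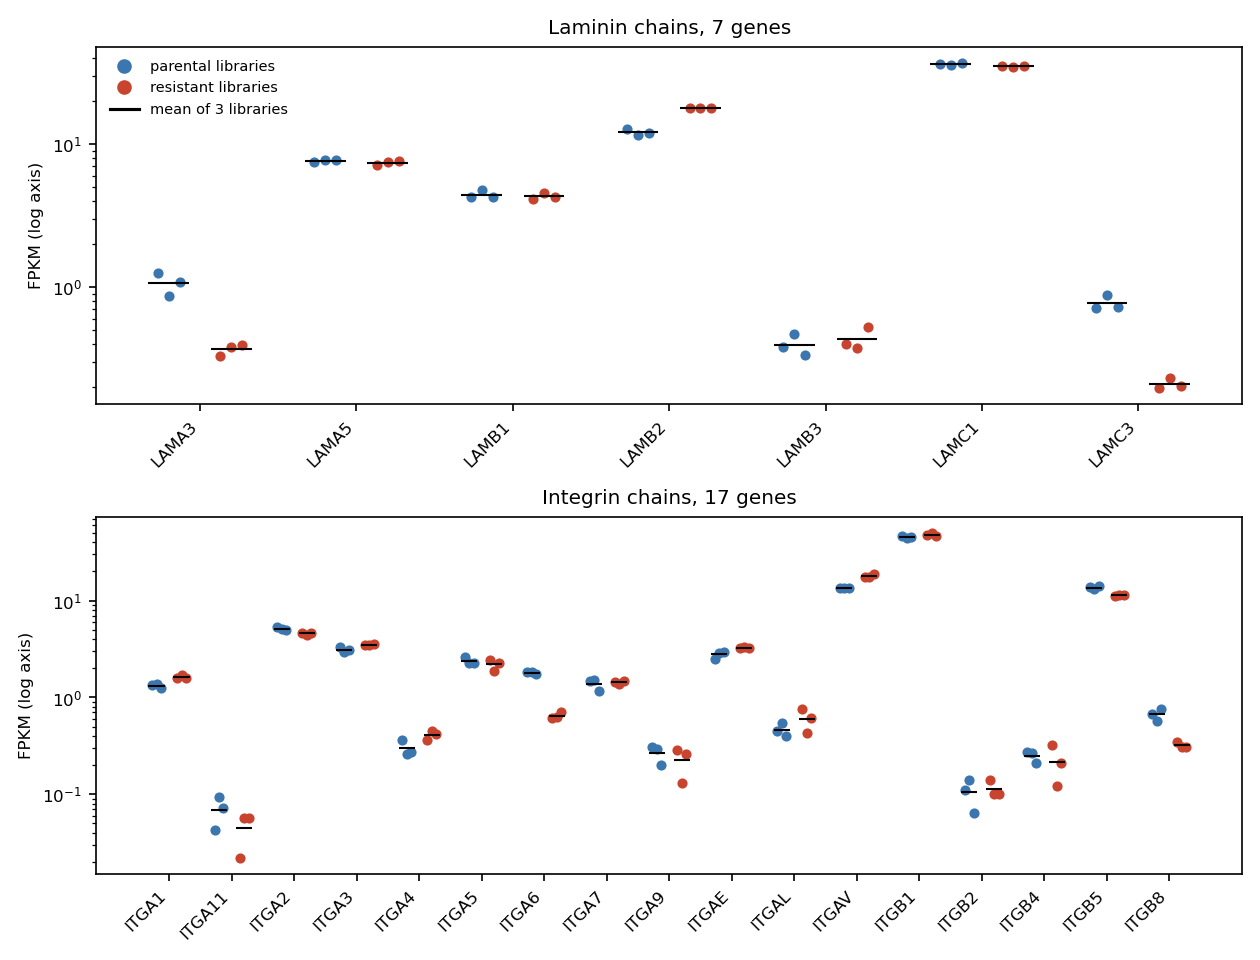
Level per gene length (FPKM, log axis) of 7 of the 8 laminin genes tested and of the 17 integrin genes tested; each point is 1 library and each black line the mean of 3. LAMC1 (36.5 and 35.1 FPKM) and ITGB1 (45.2 and 48.1 FPKM) stand highest, LAMA3, LAMC3, ITGA6 and ITGB8 are lower in all resistant libraries, and LAMB2 and ITGAV are higher.

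Of the laminin-binding integrin alpha chains, ITGA6 fell, whereas ITGA3 and ITGA7 did not pass the test. ITGA6 (ENSG00000091409, chr2:172427354-172506282, forward strand) pairs with ITGB1 or, in hemidesmosomes, with ITGB4, and is a known surface marker of basal and progenitor cells of the prostate. ITGA6 was at 12.0, 12.1 and 11.3 CPM in parental libraries and at 3.98, 4.15 and 4.62 CPM in resistant libraries. The parental level was 2.78-fold the resistant level (log2 fold change −1.47, SE 0.136, FDR 6.82e-12), and the gap between the groups was many times the spread within them. Its partner ITGB4 was at 1.69 ± 0.223 CPM in parental and 1.47 ± 0.679 CPM in resistant cells (SD, n = 3 each) with overlapping groups (log2 fold change −0.20, 95% confidence interval −0.84 to 0.44, FDR 0.678). Reads of ITGB4 may also come from GALK1, which overlaps it on the opposite strand. ITGA3, which binds the same laminins as ITGA6, was at 32.7, 28.8 and 30.3 CPM in parental and at 33.8, 34.1 and 34.9 CPM in resistant libraries. Its groups did not overlap, but the log2 fold change of 0.16 had an FDR of 0.0637, which passed 0.05 only without parental library 1 (0.21, FDR 0.025) and among protein-coding genes alone (0.18, FDR 0.0338). ITGA7, best known as the laminin receptor of muscle, was at 8.81 ± 1.14 and 9.21 ± 0.334 CPM (SD, n = 3 each; log2 fold change 0.06, FDR 0.772), and METTL7B and BLOC1S1 overlap it on the opposite strand.

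Among integrins that bind fibronectin, vitronectin and other proteins with an RGD motif, ITGAV rose, ITGB5 and ITGB8 fell and ITGB1 rose slightly. ITGAV (ENSG00000138448, chr2:186590065-186680901, forward strand) was at 112, 110.3 and 111 CPM in parental libraries and at 142, 144 and 153 CPM in resistant libraries. The log2 fold change was 0.40 (SE 0.038, FDR 1.43e-11), and no library of 1 group reached the other. ITGB5, which with ITGAV forms a vitronectin receptor, was at 88.3, 84.1 and 90.6 CPM in parental and at 72.6, 72.9 and 74.1 CPM in resistant libraries. Its log2 fold change was −0.26 (SE 0.045, FDR 1.21e-05). ITGB8 (ENSG00000105855, chr7:20330702-20415754, forward strand), which with ITGAV binds and activates latent TGF-beta, was at 10.3, 8.75 and 11.5 CPM in parental and at 5.31, 4.62 and 4.68 CPM in resistant libraries. All parental libraries lay above all resistant ones, with a log2 fold change of −1.05 (SE 0.143, FDR 9.63e-08), which was −0.96 and so inside the fold threshold without parental library 3. ITGB1, the beta chain shared by most alpha chains, differed least of the genes that passed the test. Its level was 279.9, 266 and 269.9 CPM in parental and 286, 299 and 282 CPM in resistant libraries (log2 fold change 0.09, SE 0.031, FDR 0.0269). The FDR of ITGB1 rose above 0.05 without parental library 2 (0.14), parental library 3 (0.0651) or resistant library 2 (0.188), and with library size alone in place of TMM scaling (0.0697). ITGA5, the classical fibronectin receptor chain, was at 18.1 ± 1.62 and 16.6 ± 2.18 CPM (SD, n = 3 each; log2 fold change −0.12, FDR 0.365). ITGA4 and ITGA9, related chains that bind fibronectin and tenascin, had overlapping groups with log2 fold changes of 0.44 (FDR 0.133) and −0.25 (FDR 0.535). ITGA9-AS1 and a pseudogene overlap ITGA9 on the opposite strand, so its counts are uncertain.

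Of the collagen-binding integrin alpha chains, which carry an inserted domain for the triple helix, ITGA1 rose and ITGA2 and ITGA11 did not pass the test. ITGA1 was at 24.6 ± 1.35 CPM in parental and 30.2 ± 1.09 CPM in resistant cells (SD, n = 3 each; log2 fold change 0.29, SE 0.074, FDR 0.00184), with no overlap. PELO lies inside ITGA1 on the same strand, so that reads of both genes could be shared, and had a log2 fold change of −0.07. ITGA2, which lies 30115 bases downstream of ITGA1 on chromosome 5, was at 41.9, 40.2 and 39.2 CPM in parental and 37.0, 35.4 and 36.7 CPM in resistant libraries. Its parental libraries all lay above its resistant ones, yet the log2 fold change of −0.16 had an FDR of 0.051, which passed 0.05 without parental library 3 (0.0495), with limma-voom (0.0471) and with library size alone (0.0297). ITGA11 was rare, at 0.756 ± 0.276 and 0.490 ± 0.215 CPM (SD, n = 3 each; log2 fold change −0.63, 95% confidence interval −1.58 to 0.33, FDR 0.328).

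Integrin chains known from leukocytes were also counted, although PTPRC (CD45) had at most 3 counts in any library and CD3E and MS4A1 had 0 in all. ITGAE, the alpha chain of the E-cadherin receptor of intraepithelial lymphocytes, was at 18.5 ± 1.68 CPM in parental and 21.8 ± 0.339 CPM in resistant cells (SD, n = 3 each; log2 fold change 0.24, SE 0.085, FDR 0.0239). Its FDR was above 0.05 without parental library 1 (0.182), resistant library 1 (0.0518) or resistant library 2 (0.0729) and with DESeq2 (0.0776), and HASPIN, which lies inside it on the opposite strand, had a mean of 434.5 counts against 320 for ITGAE. ITGAL, the alpha chain of LFA-1, was at 3.00 ± 0.468 and 3.89 ± 1.05 CPM with overlapping groups (SD, n = 3 each; log2 fold change 0.38, FDR 0.179) and shares its locus with antisense genes of similar counts. ITGB2, its beta partner, was at 0.713 ± 0.263 and 0.774 ± 0.165 CPM (log2 fold change 0.10, FDR 0.886).

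Per gene length, ITGB1 was the most abundant integrin chain, at 45.2 FPKM in parental and 48.1 FPKM in resistant cells, ahead of ITGAV (13.5 and 17.8 FPKM), ITGB5 (13.6 and 11.4 FPKM), ITGA2 (5.11 and 4.59 FPKM) and ITGA3 (3.12 and 3.50 FPKM). ITGAV and ITGB5 did not differ beyond their spread in parental cells, whereas ITGAV stood above ITGB5 in resistant cells. ITGAV made up 41.4 ± 0.726% (SD, n = 3) of the summed FPKM of the integrin alpha genes in parental cells and 48.8 ± 0.989% in resistant cells. The share of ITGA6 was 5.44% to 5.66% in parental libraries and 1.67% to 1.88% in resistant libraries, and that of ITGA2 was 15.5% to 16.0% and 12.3% to 12.8%. Among the beta genes, ITGB1 made up 75.2 ± 0.554% and 79.8 ± 0.626%, ITGB5 22.6 ± 0.630% and 18.9 ± 0.574%, and ITGB8 1.11 ± 0.135% and 0.535 ± 0.047% (SD, n = 3 each). The sum over the alpha genes was 32.6 ± 0.698 FPKM in parental and 36.6 ± 0.991 FPKM in resistant cells, while that over the beta genes was 60.1 ± 1.58 and 60.2 ± 1.40 FPKM (SD, n = 3 each).

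Collagen IV, the collagen of basement membranes, is encoded by 3 pairs of genes that start next to each other on opposite strands. In these lines, the pairs differed from each other in level and direction. COL4A5 and COL4A6, the pair on chromosome X, whose starts are 346 bases apart, both rose. COL4A5 (ENSG00000188153, chrX:108439844-108697545, forward strand) was at 38.3, 35.4 and 35.4 CPM in parental and 58.0, 64.4 and 58.1 CPM in resistant libraries, with wide separation (log2 fold change 0.72, SE 0.060, FDR 3.52e-13). COL4A6 (ENSG00000197565, chrX:108155607-108439497, reverse strand) had only 11, 8 and 7 counts in parental and 14, 24 and 16 counts in resistant libraries. Its log2 fold change was 1.07 (SE 0.413, FDR 0.0402), the weakest call of all members. COL4A6 reached the cutoff of the filter on low counts in 3 resistant libraries but only 1 parental library. It thus passed mainly through the group where it was higher, which made a difference more likely. COL4A6 was called in only 1 of the 6 fits that left out a library, the one without resistant library 1. Its FDR was between 0.0551 and 0.266 in the others (0.0553, 0.124 and 0.101 without parental libraries 1, 2 and 3, 0.266 and 0.0551 without resistant libraries 2 and 3), and limma-voom gave 0.0561, DESeq2 0.113 and the fit of unfiltered counts 0.0589.

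COL4A3 and COL4A4, the pair on chromosome 2, whose starts are 111 bases apart, both fell. COL4A3 and COL4A4 form, with COL4A5, the collagen IV of specialized membranes such as that of the kidney glomerulus. COL4A4 (ENSG00000081052, chr2:227002711-227164453, reverse strand) was at 4.70, 6.19 and 4.47 CPM in parental and 3.20, 2.11 and 2.03 CPM in resistant libraries. Its log2 fold change was −1.06 (SE 0.208, FDR 6.53e-05), and it was inside the fold threshold without parental library 2 (−0.90), resistant library 2 (−0.97) or resistant library 3 (−0.94). COL4A3 (ENSG00000169031, chr2:227164565-227314792, forward strand) was at 9.11, 11.1 and 9.73 CPM in parental and 5.19, 7.21 and 6.84 CPM in resistant libraries, with a log2 fold change of −0.64 (SE 0.138, FDR 0.000231). For both genes, every resistant library lay under every parental one. COL4A3 is overlapped by an antisense gene with a mean of 25.5 counts.

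COL4A1 and COL4A2, the pair on chromosome 13 that supplies collagen IV in nearly all tissues, were not both expressed. COL4A1 had 0 counts in 5 libraries and 1 in resistant library 3. COL4A2 (ENSG00000134871, chr13:110305812-110513209, forward strand) had 82, 127 and 85 counts in parental and 71, 51 and 60 counts in resistant libraries. The groups did not overlap in CPM, and COL4A2 fell with a log2 fold change of −0.68 (SE 0.180, FDR 0.00243), which was −0.50 with an FDR of 0.0532 without parental library 2. Taking the 6 genes per length, COL4A5 made up 60.8 ± 3.91% (SD, n = 3) of collagen IV FPKM in parental cells and 80.0 ± 0.349% in resistant cells, followed by COL4A3 at 21.7 ± 1.65% and 11.1 ± 1.51%. The sum of the 6 was 5.04 ± 0.201 FPKM in parental and 6.34 ± 0.385 FPKM in resistant cells (SD, n = 3 each), and all resistant libraries lay above all parental ones.

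**Figure D3:**
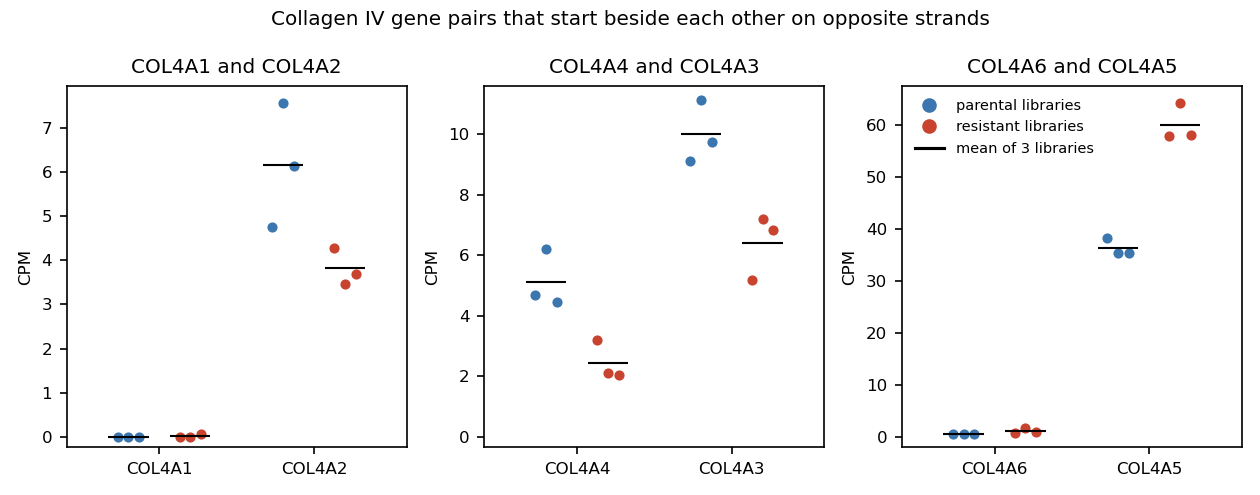
Level (CPM, 1 scale per panel) of the 6 collagen IV genes, drawn as the 3 pairs of adjacent genes; each point is 1 library and each black line the mean of 3. COL4A1 is at or near 0 beside COL4A2, COL4A4 and COL4A3 are lower in resistant libraries, and COL4A5 is higher (36.3 and 60.1 CPM on average) beside COL4A6 (0.540 and 1.15 CPM).

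Collagen VI, whose microfilaments link cells to the surrounding matrix, is assembled from COL6A1, COL6A2 and a further chain such as COL6A3. COL6A1 (ENSG00000142156, chr21:45981737-46005050, forward strand) fell from 40.8, 43.2 and 45.5 CPM in parental libraries to 16.0, 16.9 and 17.7 CPM in resistant libraries. The parental level was 2.56-fold the resistant level (log2 fold change −1.35, SE 0.075, FDR 9.50e-19), the smallest FDR among the members, and no library came near the other group. COL6A2, its neighbor 93046 bases downstream, was near the limit of detection, with 9, 15 and 4 counts in parental and 12, 8 and 7 counts in resistant libraries, and was not tested. COL6A3 (ENSG00000163359, chr2:237324003-237414375, reverse strand) had 13, 16 and 17 counts in parental and 36, 26 and 41 counts in resistant libraries. It rose with a log2 fold change of 1.16 (SE 0.315, FDR 0.00326), and without parental library 1 the value was 1.00 and inside the fold threshold. Per gene length, COL6A1 was at 8.08 and 3.16 FPKM and COL6A3 at 0.0498 and 0.110 FPKM, so the chain that fell was by far the more abundant in both lines. LUM, 1 of the fibroblast and smooth muscle markers, had a log2 fold change of −1.74 in the same libraries. In the same list MYH11 rose (2.47), DCN (−0.46, FDR 0.286) and ACTA2 (0.15, FDR 0.783) did not pass the test, and PDGFRB, DES and THY1 were at or near 0. The part of that marker list in the COL6A1 result was not tested, and in bulk RNA fewer cells of a type and less RNA per cell cannot be told apart.

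Fibrillar collagens moved apart as well, with COL5A1 and COL27A1 higher and COL5A2 and COL1A1 lower. COL5A1 (ENSG00000130635, chr9:134641774-134844843, forward strand) encodes the main chain of collagen V, which starts the assembly of collagen fibers. COL5A1 was at 22.7, 23.7 and 26.4 CPM in parental and 48.4, 51.9 and 56.9 CPM in resistant libraries, a 2.17-fold difference without overlap (log2 fold change 1.11, SE 0.071, FDR 7.48e-17). It was the only member called higher in all 6 fits that left out a library. COL5A2, which joins COL5A1 in the most common form of collagen V, was at 18.1, 16.2 and 15.1 CPM in parental and 13.3, 12.3 and 13.1 CPM in resistant libraries (log2 fold change −0.36, SE 0.099, FDR 0.00412). Per gene length, these chains were at 2.17 FPKM (COL5A1) and 2.21 FPKM (COL5A2) in parental cells and at 4.68 and 1.73 FPKM in resistant cells. COL27A1, a fibrillar collagen of cartilage, was at 8.21 ± 0.202 CPM in parental and 12.0 ± 0.961 CPM in resistant cells (SD, n = 3 each; log2 fold change 0.55, SE 0.118, FDR 0.00024). COL1A1, the main chain of collagen I, was at 14.2 ± 1.09 and 11.7 ± 0.558 CPM (SD, n = 3 each; log2 fold change −0.28, SE 0.105, FDR 0.0348), and its FDR was above 0.05 without parental library 2 (0.175), resistant library 1 (0.0806) or resistant library 2 (0.109), with DESeq2 (0.102) and with no filter (0.0698). Its partner COL1A2 had at most 2 counts in any library.

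COL7A1 (ENSG00000114270, chr3:48564073-48595267, reverse strand) encodes the anchoring fibrils that tie the epithelial basement membrane to the tissue beneath. COL7A1 rose from 13.4, 16.0 and 15.1 CPM in parental to 31.4, 30.8 and 27.8 CPM in resistant libraries, with all resistant libraries well above the parental ones. The log2 fold change was 1.02 (SE 0.085, FDR 3.28e-13), so near the fold threshold that it was 0.95 without parental library 1 and 0.99 without resistant library 1. In the FACIT group, collagens that decorate fibers, COL9A3 fell and COL9A2 rose, although both are chains of collagen IX. COL9A3 was at 36.2, 34.3 and 37.0 CPM in parental and 26.5, 24.3 and 24.9 CPM in resistant libraries (log2 fold change −0.50, SE 0.071, FDR 1.95e-07). TCFL5 overlaps COL9A3 on the opposite strand and had a log2 fold change of −0.35, so reads of the genes may not be separable. COL9A2 was at 3.83, 3.93 and 3.89 CPM in parental and 5.73, 5.85 and 5.61 CPM in resistant libraries (log2 fold change 0.56, SE 0.168, FDR 0.00751). COL14A1, another FACIT collagen, was at 42.1 ± 3.06 and 47.7 ± 1.41 CPM (SD, n = 3 each). Its log2 fold change was 0.18 (SE 0.062, FDR 0.0175). The FDR was 0.159 without parental library 2 and 0.073 without resistant library 3, and with DESeq2 it lay just above the threshold.

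Transmembrane collagens are anchored in the cell membrane, and the 2 that were tested both fell. COL25A1 (ENSG00000188517, chr4:108808725-109302752, reverse strand), found in amyloid plaques and at motor axon terminals, had 74, 89 and 50 counts in parental and 29, 43 and 32 counts in resistant libraries. The groups did not overlap, and the log2 fold change of −1.01 (SE 0.223, FDR 0.000348) lay at the fold threshold, with −0.85 without parental library 2, −0.86 without resistant library 1, −0.93 without resistant library 3 and −0.99 among protein-coding genes alone. COL13A1 (ENSG00000197467, chr10:69801867-69964275, forward strand), a collagen of the neuromuscular junction, had 19, 18 and 11 counts in parental and 6, 5 and 5 counts in resistant libraries, with a log2 fold change of −1.54 (SE 0.457, FDR 0.0067). COL13A1 reached the cutoff of the filter on low counts in 3 parental and 0 resistant libraries, which made a difference more likely among those tested. It was the only member tested for which 1 group had no library at that cutoff. Of the remaining types, COL28A1 had 16, 32 and 38 counts in parental and 57, 61 and 47 counts in resistant libraries (log2 fold change 0.94, SE 0.266, FDR 0.0047). Parental library 1 was the low one for COL28A1, and the log2 fold change was 0.60 with an FDR of 0.0683 without it, 1.30 without parental library 3 and 1.06 without resistant library 3. COL26A1 had 47, 33 and 34 counts in parental and 19, 22 and 21 counts in resistant libraries (log2 fold change −0.86, SE 0.281, FDR 0.014), with an FDR of 0.075 without parental library 1 and 0.0624 without resistant library 1.

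**Figure D4:**
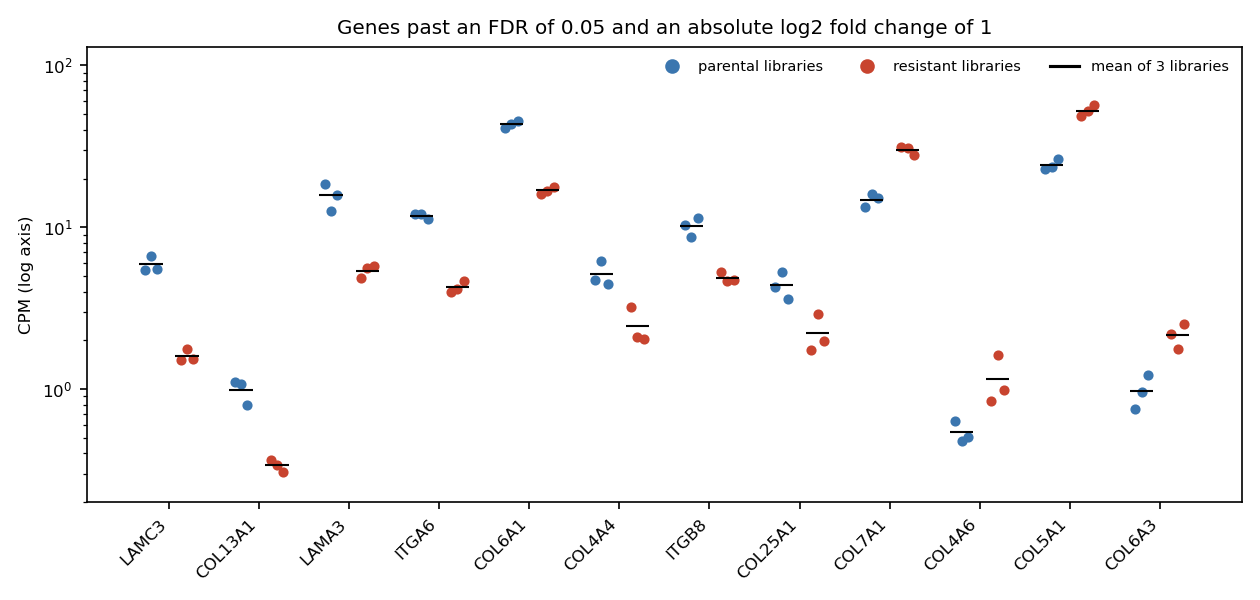
Level (CPM, log axis) of the 12 members past an FDR of 0.05 and an absolute log2 fold change of 1; each point is 1 library, each black line the mean of 3, and genes are ordered from the lowest to the highest log2 fold change. In all 12 the parental and resistant libraries do not overlap, which the selection of these genes makes likely, and levels range from 0.308 CPM (COL13A1) to 56.9 CPM (COL5A1).

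Per gene length, COL6A1 (8.08 FPKM) and COL9A3 (7.40 FPKM) were the highest collagens of parental cells, and COL14A1 (5.52 FPKM), COL9A3 (5.21 FPKM) and COL4A5 (5.07 FPKM) those of resistant cells. COL6A1 made up 21.8 ± 1.13% (SD, n = 3) of the summed FPKM of all collagen genes in parental cells and 8.91 ± 0.368% in resistant cells. The share of COL5A1 was 5.46% to 6.29% in parental and 12.4% to 14.2% in resistant libraries, and that of COL4A5 was 7.94% to 8.67% and 13.7% to 15.2%. The sum itself was 37.1 ± 0.462 FPKM in parental and 35.4 ± 0.422 FPKM in resistant cells (SD, n = 3 each). The 7 collagens that were tested and did not pass had group means of 0.488 to 1.66 CPM, so that only wide differences could have been found. Over all 81 members, counts made up 0.148% to 0.150% of all counts in parental and 0.153% to 0.156% in resistant libraries.

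The other 30 members, 18 collagens, 8 integrins and 4 laminins, were too rare to be tested. Of these, 4 had 0 counts in every library (COL6A5, COL15A1, ITGA8 and LAMA1), and 16 in all had at most 3 counts in any library. The highest sums among them were those of ITGA10, COL6A2 and COL8A2. ITGA10, a collagen-binding chain of cartilage, had 6, 9 and 1 counts in parental and 7, 15 and 12 counts in resistant libraries. COL8A2, a short-chain collagen of the cornea, had 30, 4 and 9 counts in parental and 5, 4 and 7 counts in resistant libraries, so that 1 parental library held most of its reads. COL16A1, chosen after its values were seen, had 10, 7 and 7 counts in parental and 1, 2 and 2 counts in resistant libraries.

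Partner genes were taken from 5 lists of 101 genes in all. NID2 and THBS1, matrix proteins outside the 3 families, had larger log2 fold changes than any member. Of 16 other matrix glycoproteins, 12 were tested, 3 rose (25%) and 4 fell (33.3%) at an FDR under 0.05, and 3 were called in each direction (25%), beside 17.1% and 18.4% of all genes tested at that FDR and 2.53% and 2.84% called. NID1 and NID2 encode the nidogens, which bridge the laminin and collagen IV networks, and they moved in opposite directions. NID1 fell from 38.3, 36.3 and 34.8 CPM in parental to 12.9, 15.5 and 13.2 CPM in resistant libraries (log2 fold change −1.40, SE 0.082, FDR 6.56e-18). NID2 rose from 1.51, 1.31 and 1.15 CPM to 7.90, 5.85 and 6.35 CPM (log2 fold change 2.33, SE 0.212, FDR 4.87e-12). Neither nidogen had overlapping groups. HSPG2 (perlecan, the heparan sulfate proteoglycan of basement membranes) was at 2.59 ± 0.093 CPM in parental and 0.836 ± 0.432 CPM in resistant cells (SD, n = 3 each). Its log2 fold change was −1.64 (FDR 6.43e-05), and −2.07 to −1.33 with each library left out. HSPG2 had only 13, 19 and 7 counts in resistant libraries. With at least 10 counts required in every library, it was not tested. FBLN1 (fibulin 1, which binds laminin and fibronectin) fell with a log2 fold change of −1.37 (FDR 1.40e-15). THBS1 (thrombospondin 1, a ligand of several integrins) rose from 13.5 ± 0.963 to 58.6 ± 1.39 CPM (SD, n = 3 each; log2 fold change 2.12, SE 0.072, FDR 4.09e-26). TNC (tenascin C, a ligand of ITGA9 and ITGAV) rose from 27.2 ± 1.98 to 55.2 ± 1.97 CPM (SD, n = 3 each; log2 fold change 1.03, FDR 7.81e-17), with 0.96 without parental library 1 and a value at the threshold of 1.00 without resistant library 1. The median log2 fold change of the list was −0.03.

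No enzyme or export factor of the list for collagen processing and cross-linking was called. Of 28, 24 were tested, 3 rose (12.5%) and 9 fell (37.5%) at an FDR under 0.05, beside 17.1% and 18.4% of all genes tested. For 12 of the 24 (50%) all resistant libraries lay under all parental ones, beside 22.8% of all genes tested. For 3 (12.5%) they lay above, beside 22.1% of all genes tested. The median log2 fold change of the list was −0.13. MIA3, a membrane protein needed to carry procollagen out of the endoplasmic reticulum, fell from 186, 178 and 176 CPM in parental to 120.3, 119 and 115 CPM in resistant libraries (log2 fold change −0.61, SE 0.037, FDR 1.25e-17). PCOLCE, an enhancer of procollagen cleavage, had a log2 fold change of −0.54 (FDR 0.00677, and 0.0562 without parental library 3). LOXL1, a cross-linking oxidase, had a log2 fold change of −0.50 (FDR 0.0226), and its FDR was above 0.05 without parental library 2 (0.132), resistant library 2 (0.0912) or resistant library 3 (0.0726) and with DESeq2 (0.0744). Of the 19 matrix metalloproteinases and their inhibitors, 8 were tested, 1 rose (12.5%) and 3 fell (37.5%) at an FDR under 0.05, where all genes tested gave 17.1% and 18.4%. TIMP2, an inhibitor that also helps MMP14 activate another metalloproteinase, fell from 11.1 ± 0.423 to 3.98 ± 0.647 CPM (SD, n = 3 each; log2 fold change −1.48, FDR 2.86e-11). MMP14, a collagenase of the cell surface, had a log2 fold change of −1.11 (FDR 0.0148), with an FDR of 0.0704 without parental library 1, 0.118 without resistant library 1 and 0.0545 with DESeq2. MMP17 rose with a log2 fold change of 0.59 (FDR 0.0211), with an FDR of 0.132 without parental library 2, 0.194 without resistant library 3 and 0.0697 with DESeq2. The median of that list was −0.11.

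Other receptors for collagen and laminin numbered 10, of which 8 were tested, 2 rose (25%) and 3 fell (37.5%) at an FDR under 0.05, again beside 17.1% and 18.4% of all genes tested. CD44, a hyaluronan receptor that also binds matrix proteins, fell from 54.0 ± 1.44 to 25.3 ± 1.03 CPM (SD, n = 3 each; log2 fold change −1.10, SE 0.064, FDR 5.73e-18). BCAM, a receptor for laminins with the LAMA5 chain, rose from 17.0 ± 0.490 to 32.3 ± 0.983 CPM (log2 fold change 0.92, SE 0.077, FDR 3.82e-13). MRC2, which takes up collagen for degradation, fell with a log2 fold change of −0.85 (FDR 2.66e-06). The median of the list was −0.06.

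Inside the cell, genes for proteins that couple integrins to actin moved in both directions. Of 28 genes, 26 were tested, 9 rose (34.6%) and 8 fell (30.8%) at an FDR under 0.05 (17.1% and 18.4% of all genes tested), with a median log2 fold change of −0.04. In each direction 3 were called (11.5%), beside 2.53% and 2.84% of all genes tested. The tensins, which bind integrin beta tails, split. TNS3 rose from 7.67 ± 0.806 to 24.7 ± 0.583 CPM (SD, n = 3 each; log2 fold change 1.68, FDR 9.38e-18), whereas TNS1 fell from 2.27 ± 0.268 to 0.394 ± 0.234 CPM (log2 fold change −2.49, FDR 1.04e-06) and TNS4 from 6.74 ± 0.906 to 2.54 ± 0.461 CPM (log2 fold change −1.41, FDR 4.91e-08). TNS1 had 35, 43 and 31 counts in parental but only 11, 4 and 4 counts in resistant libraries, close to the limit of detection. With at least 10 counts required in every library, TNS1 was not tested. PARVA (alpha-parvin, which joins integrin-linked kinase to actin) was at 35.9, 37.5 and 39.4 CPM in parental and at 92.7, 92.8 and 91.6 CPM in resistant libraries (log2 fold change 1.30, SE 0.052, FDR 1.04e-23). FERMT3 (kindlin 3, the integrin activator of blood cells) rose from 14.0 ± 0.714 to 31.5 ± 2.56 CPM (SD, n = 3 each; log2 fold change 1.17, FDR 3.86e-15). TGFB1I1, a focal adhesion adaptor related to paxillin, fell with a log2 fold change of −1.10 (FDR 0.000108).

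**Figure D5:**
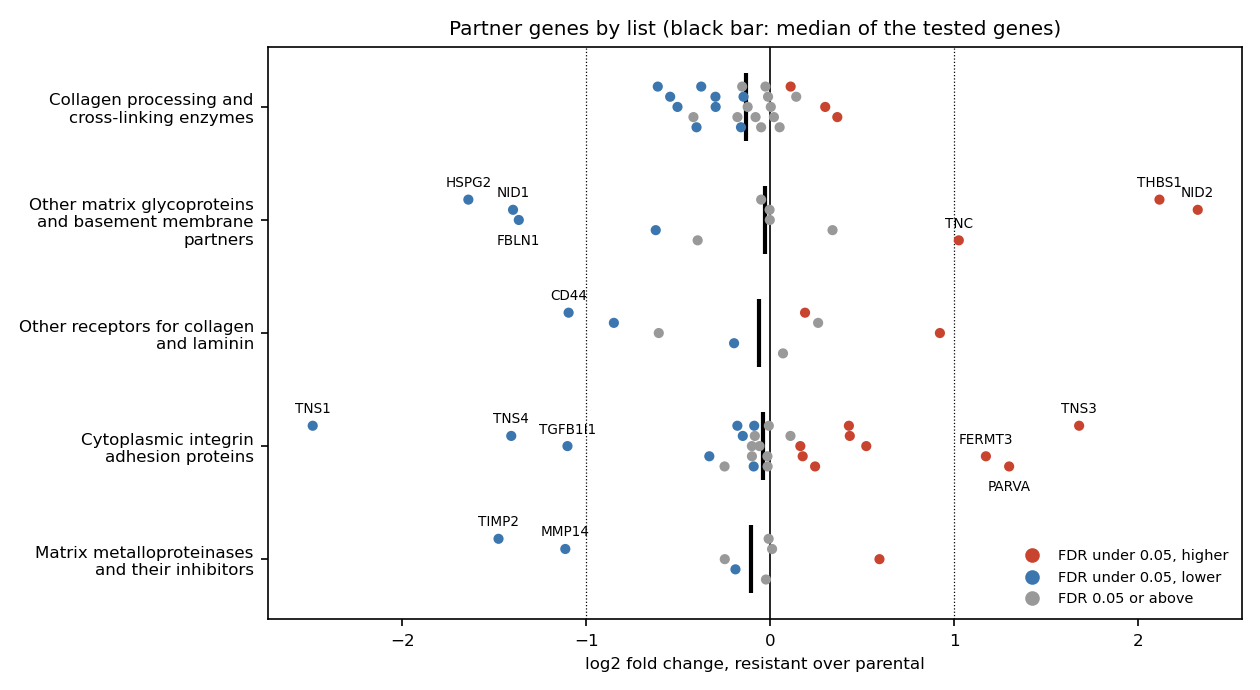
Log2 fold change (resistant over parental, x axis) of the 78 partner genes tested, by list; each point is 1 gene, color gives the side of an FDR of 0.05, black bars are list medians, dotted lines mark −1 and 1, and called genes are named. NID2 (2.33) and THBS1 (2.12) lie farthest to the right and TNS1 (−2.49), with 11, 4 and 4 counts in resistant libraries, farthest to the left.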

How the data were processed

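RNA-Seq was read for 6 libraries, 3 parental and 3 resistant, grouped by the sample labels. The labels give mouse as the organism, but the gene identifiers and positions are human (hg38), and the table was read as human. Per the submitters' processing notes, the authors used fastp, HISAT2 (2.0.5) and featureCounts (1.5.0-p3). They deposited raw counts per gene without normalization, with gene length in bases, position and biotype. The annotation release and the use of strand are not given in the sources used here. No column of per-sample values was left out (0 unused), and no human sequence was used here.

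The deposited counts were filtered with edgeR's filterByExpr, scaled with TMM and tested with the quasi-likelihood test (edgeR 4.0.16, R 4.3.3), with Benjamini-Hochberg adjustment over 17142 genes. CPM and FPKM used the TMM-scaled library size. SE was the size of the log2 fold change divided by the square root of F. A level of 3 counts was taken as the floor, which covers counting error only. An exact permutation test of 3 libraries against 3 cannot give a two-sided p below 0.1, so that single summed levels and shares were given without a test.

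Named were all laminins and integrins tested, collagens at an FDR of less than 0.05 or among the 10 of highest FPKM, called partner genes (filled to 3 per list) and the untested members of highest counts. Some genes that this rule selects are not reported here. The members and lists were chosen with earlier results of these data known. Alternatives were DESeq2 (1.42.0), voom from limma (3.58.1), which the study names for this step, library size alone, upper quartile scaling, a fit of unfiltered counts, a minimum of 10 counts in every library, protein-coding genes only, glmTreat, a replicate block and each library left out. The scripts were tested on simulated counts.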

Additional observations from a re-analysis of the deposited data

How the results depend on the processing

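Counts of members were 4 called higher and 8 called lower. They kept within 1.5 times of these values under limma-voom, DESeq2, other scalings, other filters and protein-coding genes only, and became 0 and 4 under glmTreat. With each library left out, 1 to 4 were called higher (1 without parental replicate 1) and 6 to 8 lower, and 11 to 14 were higher and 13 to 17 lower at an FDR of less than 0.05. Of the 12 calls, 6 (COL5A1, COL6A1, COL13A1, LAMA3, LAMC3 and ITGA6) held in all 6 of those fits (COL13A1 had passed the filter through the parental group alone, so that its difference was partly built in), as did 21 of the 29 members at an FDR of less than 0.05. The other 6 fell inside the fold threshold or, for COL4A6, missed the FDR threshold in at least 1 of them. Over all genes tested, 434 were called higher and 487 lower, and 248 and 287 with at least 10 counts in every library, where fewer genes were tested.

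Among the members named, the sign changed only for some that passed no test. With each library left out, log2 fold changes ranged from −0.4459 to 0.0114 for ITGA9, −0.1317 to 0.3542 for ITGB2, −0.5923 to 0.0765 for ITGB4, −0.0380 to 0.1197 for ITGA7, −0.0753 to 0.0136 for LAMB1 and −0.0394 to 0.2609 for LAMB3. The labels give both groups replicate numbers 1 to 3. Deviations of same-numbered libraries did not correlate (r of −0.0081, −0.0196 and −0.0157 across genes), so no pairing was visible. Such values cannot show whether same-numbered libraries shared a culture day or batch. The replicate block called 3 members higher and 7 lower. The median log2 fold change of the collagens was 0.09, and −0.31 with at least 10 counts in every library, where only 18 could be tested. Genes under a few CPM are limited by depth.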
